A study of Mus musculus with 22 samples.

Results

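The genes described here are 10 neurotrophic factors and receptors, Bdnf, Ntrk2, Ntrk3, Ngfr, Gdnf, Gfra1, Gfra2, Ret, Cntf and Cntfr, taken by symbol from a table of 21995 genes measured by RNA-seq in whole mouse spinal cord. All 10 were found, and 9 of the 10 had enough counts to be tested, Gdnf being the exception. The 22 mice were on a C57BL/6 background and formed 2 experiments, each with its own control group. In the aging experiment, 8 old wild-type males at 18–24 months were compared with 8 young wild-type males at 3–4 months. In the ALS experiment, 3 SOD1-G93A mice at 5–6 months were compared with 3 wild-type controls (WT control) of the same age, with females and a male in each group. The SOD1-G93A line has a high copy number transgene, the human SOD1 gene with the G93A mutation under its own promoter, and loses motor neurons until paralysis. Each library came from 1 mouse. The libraries of the 2 experiments were made with different kits, so levels are compared only within an experiment.

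Neurotrophic factors are secreted proteins that keep neurons alive and maintain their axons and synapses, and motor neurons are among their best known targets. Brain-derived neurotrophic factor binds the receptor tyrosine kinase TrkB, neurotrophin-3 binds TrkC, and the unprocessed forms of the neurotrophins bind p75NTR, the product of Ngfr. Glial cell line-derived neurotrophic factor and neurturin bind the GPI-anchored co-receptors GFRα1 and GFRα2, which signal through the kinase Ret. Ciliary neurotrophic factor, a cytokine of the interleukin-6 family stored in glia, binds CNTFRα together with LIF receptor and gp130.

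In aging, Ngfr and Cntf rose and Bdnf fell. In SOD1-G93A mice, Cntf rose 3.40-fold, Gfra1 rose 1.35-fold and Ret fell by 29.0%. The calls of Bdnf in aging and of Gfra1 in ALS were lost when some single libraries were left out. Calls were made by edgeR's quasi-likelihood test at an adjusted p under 0.05, with adjustment over all genes tested. By that measure 3 of the 9 tested members were called in aging, against 26.4% of the 13647 genes tested, and 3 of 9 in ALS, against 33.9% of 14386 genes. The share of members called was therefore near the share of all genes in both comparisons. With a log2 fold change beyond 1 required as well, 9.7% of all genes were called in ALS and 1 of 9 members, Cntf. In aging 2.22% of all genes passed that rule, and the largest change of a member was 0.70, for Ngfr. The median log2 fold change of the 9 members was -0.04 in aging and -0.12 in ALS, and that of all genes tested was -0.0027 and 0.0031.

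**Figure D1:**
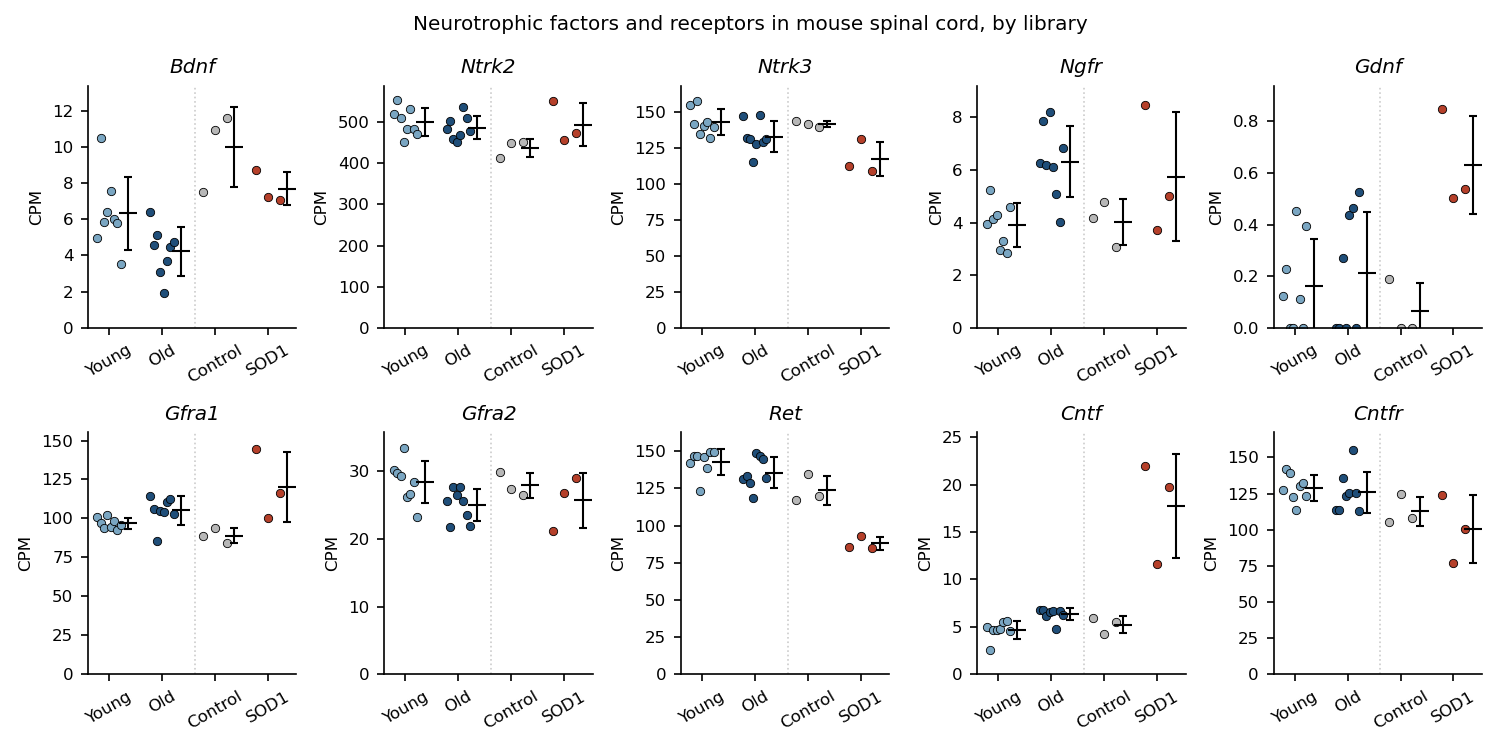
Level of each of the 10 members in each library, in CPM (counts scaled to the size of the library) on an axis from 0. Each point is 1 mouse, the horizontal bar and whiskers beside the points are the mean and SD (n = 8, 8, 3 and 3), whiskers below 0 are cut, and the dotted line separates the aging from the ALS experiment. The 3 SOD1-G93A points for Cntf, at 11.6 to 21.9 CPM, lie above all controls, and the 3 points for Ret, at 85.2 to 92.9 CPM, lie below them.

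Depth ranged from 5078092 to 9358055 counts in the aging libraries and from 9675610 to 13219797 in the ALS libraries, so that 3 counts corresponded to 0.231 to 0.582 CPM. The chi-square of the counts of any pair of libraries in a group was at least 2.36 times its degrees of freedom, so no pair agreed within sampling noise. The mouse Sod1 row held 296 to 335 CPM in the SOD1-G93A libraries and 156 to 168 CPM in their controls, which followed the labels; how reads of the human transgene map to that row is not given in the sources used here. Motor neuron markers summed to 141 to 156 CPM in SOD1-G93A and 287 to 322 CPM in control libraries. In whole tissue, fewer cells of a type and less RNA per cell cannot be told apart. By Schwann cell markers, SOD1-G93A library d4435 stood apart from its group, at 252 CPM against 86.0 and 101 CPM in the other 2. So did old library d149032, at 141 CPM against 58.3 to 68.9 CPM in the other old mice. SOD1-G93A library d4437 stood apart in its counts as a whole. Its chi-square per degree of freedom was 28.4 with d4435 and 15.4 with d4443, against 8.22 between those 2. It had neuron markers at 4754 CPM against 2958 and 3212 CPM, and microglia markers at 1156 CPM against 2087 and 1653 CPM. Old library d149034 had microglia markers at 473 CPM against 628 to 787 CPM in the other old mice. It also had the lowest astrocyte marker sum of the old mice, 7080 CPM, and the highest neuron marker sum, 6303 CPM. Within the astrocyte sum, Gfap was at 1999 CPM in d149034 against 2589 to 3371 CPM in the other old mice. The chi-square per degree of freedom of d149034 was 10.1 to 30.1 with the other old libraries. The 8 sensory ganglion markers summed to 6.69 to 13.6 CPM over the 22 libraries, with Mrgprd at 0 in all of them. Of the 3 tested in ALS, Avil was called higher, at a log2 fold change of 2.59, and 2 were not called. The median log2 fold change of the 3 was -0.16. Their list summed to 9.22 to 10.6 CPM in controls and 9.49 to 12.2 CPM in SOD1-G93A mice.

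Sequence is shown for the CNTF family, because Cntf and relatives of it were called higher in both comparisons, as described further on. Of the 10 ligands and receptors of the CNTF family, 7 had a RefSeq window upstream of a start site. Of these, 2 held the AP-1 motif TGANTCA, which reads the same on both strands, in the 250 bases before that start, and 7.82% of 27025 genes with such a window held it. These are the 250 bases, in GRCm38.p6 and 5′ to 3′ on the strand of the gene, with the motif in capitals.
Cntf, chr19:12765633-12765882, minus strand, inside the gene Zfp91: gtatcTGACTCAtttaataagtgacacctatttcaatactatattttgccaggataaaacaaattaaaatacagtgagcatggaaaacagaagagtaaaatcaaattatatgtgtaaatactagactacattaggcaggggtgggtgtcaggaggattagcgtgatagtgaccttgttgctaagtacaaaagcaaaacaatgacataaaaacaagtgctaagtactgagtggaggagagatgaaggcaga
Lif, chr11:4257318-4257567, plus strand: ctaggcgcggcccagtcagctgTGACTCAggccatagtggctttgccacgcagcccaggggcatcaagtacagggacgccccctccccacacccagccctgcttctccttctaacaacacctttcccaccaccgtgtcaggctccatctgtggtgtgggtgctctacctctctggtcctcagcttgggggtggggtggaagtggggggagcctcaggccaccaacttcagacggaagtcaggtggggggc
The motif began 245 bases before the start of Cntf and 228 bases before that of Lif. The same motif also lay just after the start of Osmr. The other motifs searched were the STAT site TTCNNNGAA and the cyclic AMP response element TGACGTCA, both the same on either strand. Neither was in any window of these 7 genes, extended past the start, and 9.55% and 2.03% of all genes held them there. A match describes the letters and not a site in use, and binding was not measured.

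Per transcript length, on the deposited log2(FPKM + 1) scale, the receptors Cntfr and Ntrk2 were the most abundant members in young cord, at 6.03 ± 0.090 and 5.97 ± 0.076 (SD, n = 8), and their libraries overlapped. Ret followed at 4.83 ± 0.090, Gfra1 at 4.57 ± 0.071 and Ntrk3 at 4.46 ± 0.14, each overlapping the next in order. Gfra2 at 3.12 ± 0.15 stood clear of Ntrk3 above it and of Cntf below it, at 2.36 ± 0.28. Cntf overlapped Bdnf at 1.30 ± 0.25, Bdnf overlapped Ngfr at 1.04 ± 0.16, and Gdnf was lowest at 0.060 ± 0.066. By mean level, each receptor except Ngfr thus stood above each ligand. In old mice Ngfr, at 1.44 ± 0.23, stood above Bdnf, at 0.96 ± 0.23, with overlapping libraries. In SOD1-G93A mice (SD, n = 3) Ret moved from the third place to the fifth, at 4.18 ± 0.068, and overlapped Cntf, which reached 4.08 ± 0.45. The control values were 4.61 ± 0.11 for Ret and 2.50 ± 0.22 for Cntf.

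**Figure D2:**
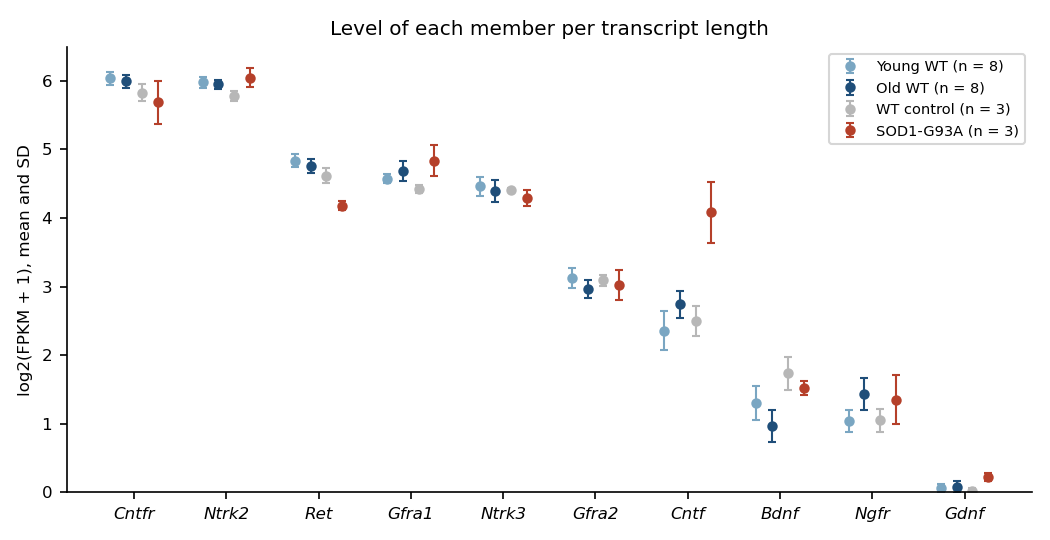
Level of each member per transcript length as mean and SD of the deposited log2(FPKM + 1), in the order of the young mice, for 8 young, 8 old, 3 control and 3 SOD1-G93A mice. Cntf in SOD1-G93A mice, at 4.08, stands near Ret, at 4.18, whereas in the other 3 groups Cntf lies well below Ret.

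Among the neurotrophins, Bdnf (ENSMUSG00000048482, chr2:109674700-109727007, plus strand of GRCm38), the ligand of TrkB, fell in aging. It ranged from 3.53 to 10.5 CPM with a median of 5.94 in young mice and from 1.90 to 6.39 CPM with a median of 4.51 in old mice. The groups overlapped, 2 old libraries lay below the lowest young library, and the young library d149011 was highest at 10.5 CPM. The level fell by 33.3%, a log2 fold change of -0.58 ± 0.21 (SE), with an adjusted p of 0.0405 by edgeR's quasi-likelihood test and an exact two-sided permutation p of 0.0236 (n = 8 and 8). Leaving out 1 library ended the call in 7 of 16 cases, with an adjusted p up to 0.113 and a log2 fold change of -0.44 without young library d149011; the other 6 were the young libraries d159033, d149017 and d149018 and the old libraries d149028, d149032 and d149035. In the ALS experiment Bdnf stood at 7.50, 10.9 and 11.6 CPM in controls and at 8.73, 7.25 and 7.07 CPM in SOD1-G93A mice. The groups overlapped, 2 SOD1-G93A libraries lay below all controls, and the log2 fold change of -0.38 ± 0.20 did not pass (adjusted p = 0.175, edgeR). Bdnf shares 896 exon bases with the antisense gene Gm45346, and whether counting used the strand is not stated. The neurotrophin genes Ntf3 and Ntf5 were under the count filter in both comparisons, with at most 6 counts in any library.

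Ngfr (ENSMUSG00000000120, chr11:95568818-95587735, minus strand) encodes p75NTR, which is abundant in developing and injured motor neurons and in Schwann cells. In young mice it was at 2.83 to 5.24 CPM with a median of 4.05, and in old mice at 4.03 to 8.21 CPM with a median of 6.22. Of the 8 old libraries, 6 lay above the highest young library. The log2 fold change was 0.70 ± 0.16, or 1.63-fold, with an adjusted p of 0.00201 (edgeR) and an exact permutation p of 0.00155, and the call held whichever of the 16 libraries was left out, with adjusted p-values up to 0.00661. Schwann cell markers were 61.6 to 82.3 CPM in young mice and 58.3 to 141 CPM in old mice, with a median log2 fold change of -0.12 over the 3 of 8 that passed the count filter. Of these 3, edgeR and DESeq2 each called 0, and 0 had an unadjusted p under 0.05. Egr2, a Schwann cell transcription factor under the filter in aging and picked after its values were seen, was at 0 to 0.908 CPM in young and 0.771 to 3.26 CPM in old mice, and 7 of 8 old libraries lay above all young libraries. The old library with 141 CPM of Schwann cell markers had 6.13 CPM of Ngfr. The part of Schwann cells in the value of Ngfr was not tested. In the ALS experiment Ngfr was at 4.18, 4.80 and 3.07 CPM in controls and at 8.47, 3.73 and 5.01 CPM in SOD1-G93A mice. The groups overlapped and the highest value came from the SOD1-G93A library d4435, the library with the most Schwann cell markers. At 0.53 ± 0.33, its log2 fold change did not pass (adjusted p = 0.245, edgeR), and it was 0.14 without that library. In ALS 2 of 5 tested Schwann cell markers were called higher, Egr2 at a log2 fold change of 5.05 and Drp2 at 0.68. With at most 3 counts in any control library, Egr2 passed the count filter through its SOD1-G93A libraries.

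Ntrk2 (ENSMUSG00000055254, chr13:58806569-59133970, plus strand), the gene of TrkB, did not pass in either comparison. It was at 451 to 553 CPM in young and 452 to 536 CPM in old mice, medians 496 and 481, with overlapping groups and a log2 fold change of -0.04 ± 0.046 (adjusted p = 0.563, edgeR). In controls it was at 413, 449 and 452 CPM and in SOD1-G93A mice at 553, 456 and 474 CPM. All 3 SOD1-G93A libraries lay above the controls, as happened without overlap in either direction for 50.4% of genes, and the log2 fold change was 0.17 ± 0.10 (adjusted p = 0.221, edgeR). The reads were summed over the transcripts of the gene, so the full-length kinase and the truncated receptor carried by astrocytes were not separated.

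Ntrk3 (ENSMUSG00000059146, chr7:78175959-78738012, minus strand), the gene of TrkC, was at 132 to 157 CPM in young and 115 to 148 CPM in old mice, medians 141 and 131. The groups overlapped and the log2 fold change of -0.11 ± 0.051 did not pass (adjusted p = 0.121, edgeR). In the ALS experiment it was at 144, 142 and 139 CPM in controls and at 112, 131 and 109 CPM in SOD1-G93A mice, all 3 of which lay below the controls. At -0.27 ± 0.094, its log2 fold change narrowly missed the threshold (adjusted p = 0.0513, edgeR). It passed with DESeq2 (adjusted p = 0.0331), with RLE factors (0.0459), in 1 fit of all libraries (0.00510) and without SOD1-G93A library d4437 (0.00316).

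Gdnf (ENSMUSG00000022144, chr15:7810846-7837575, plus strand), the founding ligand of its family, was at the limit of detection. Young libraries held 0 to 4 counts and old libraries 0 to 3 counts, and the ratio of the pooled counts was 1.06, with a 95% interval of 0.416 to 2.69 that covers counting error only. The 3 control libraries held 2, 0 and 0 counts, and the 3 SOD1-G93A libraries 10, 5 and 6 counts. The SOD1-G93A libraries all lay above the controls. Over pooled counts, 21 against 2, the ratio was 11.3, with an exact 95% interval of 2.76 to 99.5 for counting error only, and the exact permutation p was 0.1, the smallest that 3 mice against 3 can give. With no filter on low counts, the adjusted p was 0.0337 by edgeR and 0.0532 by DESeq2.

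Gfra1 (ENSMUSG00000025089, chr19:58235604-58455909, minus strand), the co-receptor that binds GDNF, was at 92.6 to 102 CPM in young mice with a median of 96.3. In old mice it was at 85.3 to 115 CPM with a median of 105. Of the old libraries 7 lay above the highest young library and 1, d149027, lay below all young libraries. A log2 fold change of 0.12 ± 0.050 did not pass (adjusted p = 0.0799, edgeR) but passed without that library (adjusted p = 0.00576). In the ALS experiment Gfra1 was at 88.9, 94.0 and 84.1 CPM in controls and rose to 145, 100.1 and 116 CPM in SOD1-G93A mice, without overlap. This was a log2 fold change of 0.44 ± 0.13 (adjusted p = 0.0316, edgeR). The call was lost in 5 of 6 cases when 1 library was left out, that is for each library but SOD1-G93A d4437, with adjusted p-values from 0.0727 to 0.113, and the log2 fold change without d4435, the library with the most Schwann cell markers, was 0.29. Gfra1 shares 416 exon bases with the antisense gene Gm16277.

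Ret (ENSMUSG00000030110, chr6:118151745-118197718, minus strand), the signalling kinase shared by all GDNF family ligands, was at 123 to 149 CPM in young and 119 to 149 CPM in old mice, medians 146 and 133. These groups overlapped over nearly their whole range and the log2 fold change of -0.08 ± 0.050 did not pass (adjusted p = 0.262, edgeR). In controls Ret was at 117, 135 and 120 CPM, and in SOD1-G93A mice it fell to 85.8, 92.9 and 85.2 CPM. The groups did not overlap. Ret thus fell by 0.49 ± 0.090 on the log2 scale, with an adjusted p of 0.00460 (edgeR), and the call held in all 6 cases with 1 library left out, with adjusted p-values up to 0.0299. Motor neuron markers fell alongside in 6 of 8 cases, among them Chodl, a marker of fast motor neurons, at a log2 fold change of -3.16, and neuron markers in 8 of 10, with sums of 5898 to 6276 CPM in controls and 2958 to 4754 CPM in SOD1-G93A mice; their part in the value of Ret was not tested. In aging 1 of 8 motor neuron markers was lower, and the summed level was 263 to 316 CPM in young and 251 to 314 CPM in old mice.

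Gfra2 (ENSMUSG00000022103, chr14:70890120-70979838, plus strand), the co-receptor of neurturin, was at 23.1 to 33.4 CPM in young and 21.7 to 27.7 CPM in old mice, medians 28.8 and 25.6, with overlap. Its difference was -0.17 ± 0.074 on the log2 scale (adjusted p = 0.0879, edgeR). In controls it was at 26.4 to 29.9 CPM and in SOD1-G93A mice at 21.2 to 29.0 CPM, with a log2 fold change of -0.12 ± 0.13 (adjusted p = 0.517, edgeR). Neither difference passed. The ratio of Gfra1 to Ret counts within a library, chosen after the values were seen and so given without a test, was 0.696 to 0.761 in controls and 1.08 to 1.69 in SOD1-G93A mice, and 0.620 to 0.828 in young and 0.664 to 0.881 in old mice.

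Of the other GDNF family genes, neurturin (Nrtn), the ligand of GFRα2, rose in SOD1-G93A mice from 2.28, 1.85 and 2.31 CPM to 5.25, 3.63 and 6.54 CPM, a log2 fold change of 1.26 ± 0.28 (adjusted p = 0.0103, edgeR). Gdf15, a stress-induced ligand that signals through GFRAL and Ret, was at 0, 1 and 0 counts in controls and 55, 12 and 45 counts in SOD1-G93A mice. The pooled ratio was 121, with a 95% interval of 21.2 to 4806 for counting error only. Both tested GDNF family ligands were called higher in ALS, where 18.4% of all genes were. Gdf15 passed the count filter only through its SOD1-G93A libraries, so the count of called ligands cannot be read against that share. The ligand gene Artn, at 12, 5 and 0 counts in controls and 8, 10 and 1 counts in SOD1-G93A mice, was not tested. None of the 5 ligands reached the count filter in aging. Among the receptors, Gfra4 rose in old mice by a log2 fold change of 0.26 (adjusted p = 0.0107, edgeR). In ALS it was at 23.5 to 27.7 CPM in controls and 14.5 to 24.4 CPM in SOD1-G93A mice, a log2 fold change of -0.41 ± 0.18 that did not pass (adjusted p = 0.111, edgeR), and the interaction, ALS minus aging, was -0.69 ± 0.16 (adjusted p = 0.00255). Gfral was at 0 in all ALS libraries.

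Cntf (ENSMUSG00000079415, chr19:12763660-12765632, minus strand) rose in both comparisons. In young mice it was at 2.50 to 5.65 CPM with a median of 4.71, and in old mice at 4.78 to 6.81 CPM with a median of 6.64. Of the 8 old libraries, 7 lay above the highest young library. The exception was d149034, the old library with the lowest microglia marker sum and the highest neuron marker sum. The log2 fold change was 0.46 ± 0.14, or 1.37-fold (adjusted p = 0.0169, edgeR; exact permutation p = 0.000932), and all 16 fits with 1 library left out kept the call, with adjusted p-values up to 0.0313. In controls it was at 5.98, 4.21 and 5.53 CPM and in SOD1-G93A mice at 21.9, 11.6 and 19.8 CPM. All 3 SOD1-G93A libraries lay above the controls, the lowest of them at 11.6 CPM. This rise was 1.77 ± 0.26 on the log2 scale (adjusted p = 0.00170, edgeR), and it stayed between 1.592 and 1.997 with 1 library left out.

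Cntf lies inside Zfp91, a zinc finger gene on the same strand, and 847 of its 1073 exon bases, 78.9%, are also Zfp91 exons, so that the split of reads between them is an estimate. Zfp91 was at 200.1 CPM in controls and 186 CPM in SOD1-G93A mice, with a log2 fold change of -0.10 (adjusted p = 0.334, edgeR), and it went from 196 to 174 CPM in aging, a log2 fold change of -0.17 (adjusted p = 0.0172, edgeR). Its log2 fold change had the opposite sign to that of Cntf in both comparisons. Whether reads of the shared exons were split differently between the groups was not tested. Per 100 Zfp91 counts there were 2.13 to 3.05 Cntf counts in controls and 6.15 to 11.7 in SOD1-G93A mice, and 1.31 to 2.95 in young against 2.37 to 4.49 in old mice. Astrocyte markers, listed because astrocytes are a main source of CNTF in the cord, summed to 5824 to 6303 CPM in controls and 11444.5 to 18110 CPM in SOD1-G93A mice, with 6 of 8 markers called higher, led by Gfap at a log2 fold change of 2.40. In aging the sum was 6223 to 6816 CPM in young and 7080 to 7773 CPM in old mice. Of the 8 markers 3 were higher and 2 lower, with a median log2 fold change of -0.08. Gfap, a large part of that sum, was at 1654 to 2164 CPM in young and 1999 to 3371 CPM in old mice. Schwann cells also make CNTF. Without library d4435 the log2 fold change of Cntf in ALS was 1.59 (adjusted p = 0.00293, edgeR). The part of either cell type in the value of Cntf was not tested.

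**Figure D3:**
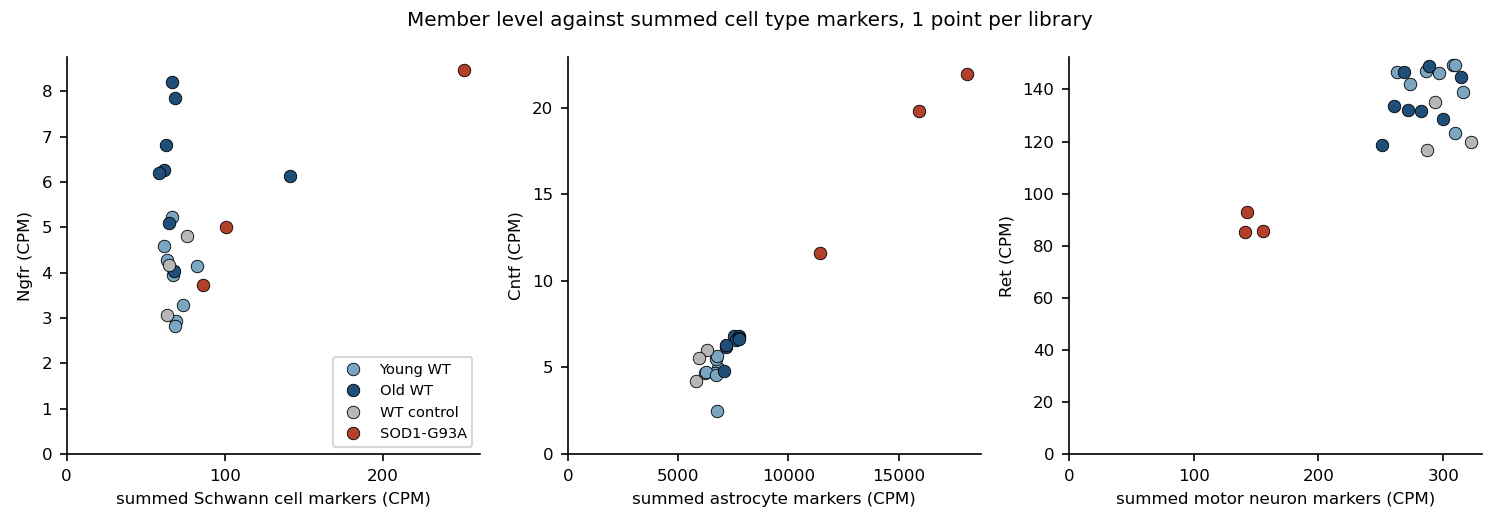
Level of Ngfr, Cntf and Ret in each of the 22 libraries (CPM, vertical axes) against the summed level of Schwann cell, astrocyte and motor neuron markers (CPM, horizontal axes). The SOD1-G93A libraries lie at 11444.5 to 18110 CPM of astrocyte markers and 141 to 156 CPM of motor neuron markers, with their controls at 5824 to 6303 CPM and 287 to 322 CPM.

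Cntfr (ENSMUSG00000028444, chr4:41657498-41697089, minus strand), the gene of the CNTF binding subunit, did not pass in either comparison. It was at 113 to 142 CPM in young and 113 to 155 CPM in old mice, medians 129 and 125, with overlap and a log2 fold change of -0.04 ± 0.061 (adjusted p = 0.714, edgeR). In controls it was at 105, 124 and 108 CPM and in SOD1-G93A mice at 124, 77.2 and 100.3 CPM, again with overlap. Its log2 fold change was -0.16 ± 0.16 (adjusted p = 0.462, edgeR), and ran from -0.34 without SOD1-G93A library d4435 to -0.00075 without d4437.

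**Figure D4:**
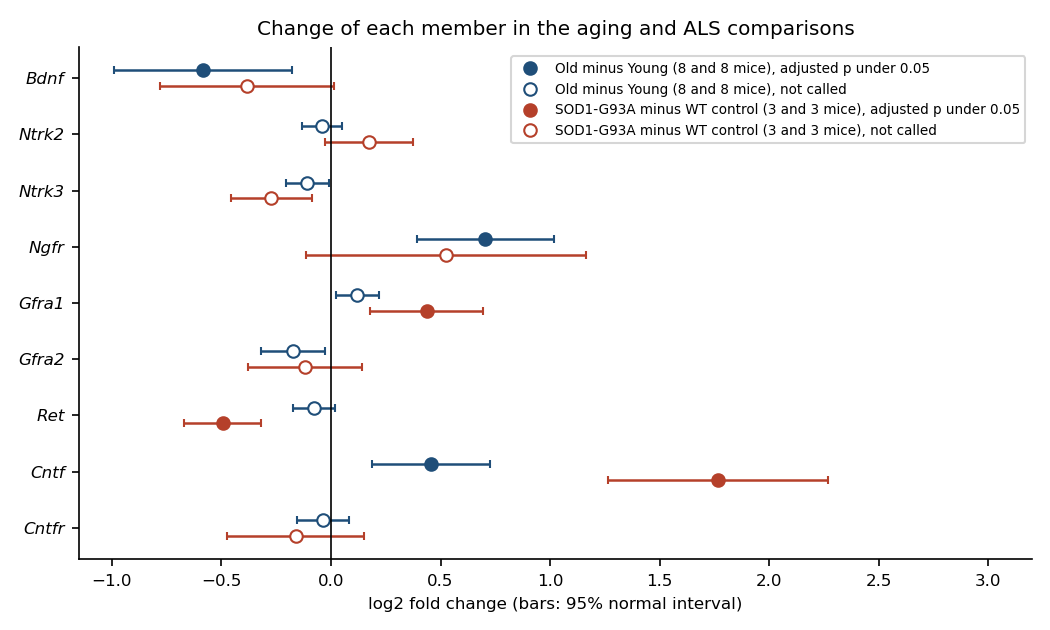
Log2 fold change of the 9 tested members in aging (blue, 8 old and 8 young mice) and ALS (red, 3 SOD1-G93A and 3 control mice), with bars of the 95% normal interval and filled points for an adjusted p under 0.05 by edgeR. Cntf in ALS, at 1.77, is the only member beyond a log2 fold change of 1.

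Ligands of the CNTF family were called higher in both comparisons. In aging all 3 ligands that passed the count filter were called higher, against 13.5% of all genes, with a median log2 fold change of 0.74. Besides Cntf these were Clcf1, the second ligand of CNTFRα, at 0.80 ± 0.17 (adjusted p = 0.00116, edgeR), and Ctf1, the gene of cardiotrophin-1, at 0.74 ± 0.23 (adjusted p = 0.0169). Clcf1 was at 2.28 to 5.05 CPM in young and 3.85 to 7.14 CPM in old mice, with overlap. In ALS all 6 ligands were called higher, all of them beyond a log2 fold change of 1, as 8.5% of all genes were, with a median of 2.18. Some of them, among these Lif and Osm, had at most 10 counts in any control library. They passed the count filter through their SOD1-G93A libraries, so the count of called ligands cannot be read against that share. Clcf1 went from 5.41, 2.69 and 3.00 CPM to 14.998, 10.98 and 17.8 CPM, a log2 fold change of 1.99 ± 0.29 (adjusted p = 0.00166). Clcf1 shares 311 exon bases with an overlapping gene on its own strand, and Ctf1 shares 87 with Ctf2 on the other strand.

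Lif, the gene of leukemia inhibitory factor, gave 2, 10 and 2 counts in controls and 46, 13 and 72 counts in SOD1-G93A mice, a log2 fold change of 3.27 ± 0.72 (adjusted p = 0.00971, edgeR). Osm, the gene of oncostatin M, gave 1, 0 and 2 counts in controls and 31, 9 and 15 counts in SOD1-G93A mice, a pooled ratio of 19.7 with an exact 95% interval of 6.41 to 98.7 for counting error only. For both, library d4437 had the lowest SOD1-G93A value. Ctf1 was higher in ALS as well, at 1.53 ± 0.43 (adjusted p = 0.0248, edgeR). Lif and Osm were under the count filter in aging. Pooled counts were 33 in young and 77 in old mice for Lif and 7 and 34 for Osm, with exact permutation p-values of 0.00218 and 0.00186; Ctf1 in ALS and both genes in aging were picked after their values were seen.

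**Figure D5:**
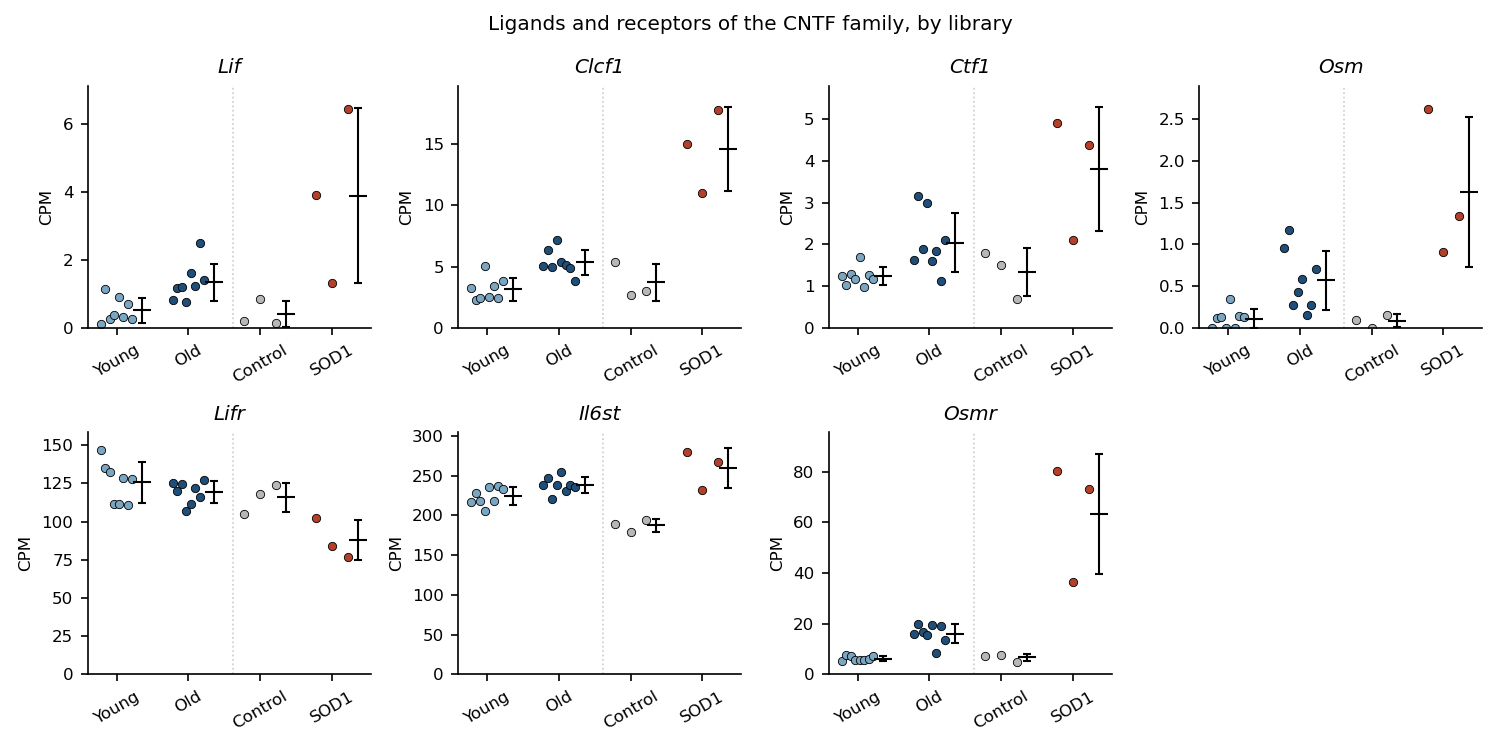
Level of CNTF family ligands (Lif, Clcf1, Ctf1, Osm) and receptors (Lifr, Il6st, Osmr) in each library in CPM, with mean and SD beside the points (n = 8, 8, 3 and 3) and whiskers below 0 cut. Osmr reaches 36.3 to 80.1 CPM in SOD1-G93A mice against 4.99 to 7.66 CPM in controls, and Lifr runs the other way.

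Of the 4 receptors of the family, Osmr, the oncostatin M receptor, was the 1 called in aging. It was at 5.07 to 7.63 CPM in young and 8.33 to 19.7 CPM in old mice, without overlap, as in 5.33% of all genes, and old library d149034 was the lowest old value. Osmr rose by 1.37 ± 0.14 on the log2 scale (adjusted p = 1.54e-07, edgeR). In ALS it went from 7.31, 7.66 and 4.99 CPM to 80.1, 36.3 and 73.3 CPM, a log2 fold change of 3.26 ± 0.31 (adjusted p = 0.000241). Il6st, the gene of the shared subunit gp130, rose by 0.47 ± 0.098 in ALS (adjusted p = 0.00789), and Lifr, its partner in the CNTF receptor, fell by 0.40 ± 0.12 on the log2 scale (adjusted p = 0.0312, edgeR). In the CNTF receptor complex of SOD1-G93A mice, gp130 transcript was thus called higher, Lifr lower and Cntfr neither.

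Genes that cut or sort proneurotrophins were called in both directions, 1 of 9 higher and 2 lower in aging, against 13.5% and 12.9% of all genes, and 2 higher and 3 lower in ALS, against 18.4% and 15.5%. Plat, the gene of tissue plasminogen activator, which starts the cascade that cleaves proBDNF, rose in both, by 0.68 ± 0.10 in aging (adjusted p = 2.06e-05, edgeR) and by 1.73 ± 0.19 in ALS (adjusted p = 0.000445). The sorting receptors Sorcs1 and Sorcs3 fell in both, by 0.28 and 0.27 on the log2 scale in aging and by 0.62 and 0.86 in ALS. Of 7 tested partners of p75NTR, 2 were called higher and 3 lower in ALS, against 18.4% and 15.5% of all genes. In aging edgeR and DESeq2 each called 0 of the 7, and 1 had an unadjusted p under 0.05, with a median log2 fold change of -0.02. Rtn4rl1, a Nogo receptor homologue, was higher in ALS at 0.66 and Maged1, an intracellular p75NTR binding protein, lower at -0.41.

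The adaptors that link Trk receptors and Ret to their signalling pathways were called lower in 5 of 13 cases and higher in 1 in aging, against 12.9% and 13.5% of all genes, and lower in 3 and higher in 1 in ALS, against 15.5% and 18.4%. Kidins220, a scaffold at Trk receptors, fell by 0.30 ± 0.051 on the log2 scale in aging (adjusted p = 0.000142, edgeR) without overlap between groups. Shc3, the neuronal Shc adaptor, fell by 0.44 in aging and 0.86 in ALS, whereas Shc1, the widely expressed form, rose by 0.37 and 0.64. Neuron markers were lower in 5 of 10 and higher in 1 in aging, with sums of 5165 to 5933 CPM in young and 4525 to 6303 CPM in old mice. Their part in these values was not tested.

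Of 11 other trophic factors and receptors, 5 were higher and 3 lower in aging, against 13.5% and 12.9% of all genes, and 4 higher and 2 lower in ALS, against 18.4% and 15.5%. Igf1, the gene of insulin-like growth factor 1, rose by 0.83 ± 0.15 in aging (adjusted p = 0.000191, edgeR) and by 2.78 ± 0.26 in ALS (adjusted p = 0.000241). Met, the receptor of hepatocyte growth factor, rose by 0.97 and 1.91. Fgf2, which shares 640 exon bases with Nudt6 on the other strand, rose in ALS by 2.72, and Nrg1, the gene of neuregulin-1, fell in ALS by 1.02 on the log2 scale. Microglia, a source of insulin-like growth factor 1, had 6 of 7 markers higher in aging and 5 of 7 in ALS, with sums of 307 to 341 CPM in young, 473 to 787 CPM in old, 316 to 381 CPM in control and 1156 to 2087 CPM in SOD1-G93A mice, and their part in these values was not tested.

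Whether a member responded differently in the 2 experiments was tested as an interaction in 1 edgeR fit of all 22 libraries. The log2 fold change in ALS minus that in aging differed from 0 in 2 of 9 members, against 25.8% of 14502 genes. For Cntf the difference was 1.28 ± 0.26 (adjusted p = 0.000846), the rise being larger in ALS. For Ret it was -0.44 ± 0.098 (adjusted p = 0.00146), the fall being larger in ALS. For Gfra1 it was 0.29 ± 0.12 and did not pass (adjusted p = 0.0668). For Bdnf and Ngfr, called in aging only, the differences were 0.17 ± 0.34 and -0.20 ± 0.33 and did not pass (adjusted p = 0.763 and 0.698), so a response particular to aging was not shown for either. Of the relatives of Cntf, Clcf1 at 1.16 ± 0.32 (adjusted p = 0.00778), Osmr at 1.86 ± 0.31 (adjusted p = 0.000110) and Il6st at 0.36 ± 0.085 (adjusted p = 0.00288) also differed upward. Lifr differed downward, at -0.35 ± 0.12 (adjusted p = 0.0375). Kit, age of the controls and sex makeup differed between the experiments and cannot be told apart from them in this test.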

How the data were processed

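RNA was extracted from whole spinal cord, and the authors prepared the aging libraries with a KAPA HyperPrep kit and the ALS libraries with a TruSeq kit, aligned reads with STAR to mm10 and quantified Ensembl genes with RSEM; SAMtools 1.3 is named in the submitters' processing notes. The authors deposited a table of expected counts, not normalized between libraries and already whole numbers, and a table of FPKM on a log2 scale after adding 1. The MNTg SOD1-G93A animals of the study were not analysed here.

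Each comparison was fitted on its own libraries with edgeR 4.0.16 in R 4.3.3. Genes were kept by filterByExpr (minimum count 10, minimum total 15), scaled by TMM and tested by the quasi-likelihood test, with p-values adjusted by Benjamini-Hochberg over every gene in the fit and a threshold of 0.05, to which the study added a log2 fold change beyond 1. CPM values use the TMM library sizes. Single values were compared by exact two-sided permutation over samples, whose smallest p is 0.000155 for 8 against 8 and 0.1 for 3 against 3. Intervals of pooled counts are exact conditional intervals, and intervals and the floor of 3 counts cover counting error only. The fit was tested on simulated data. Alternatives used DESeq2 1.42.0, limma 3.58.1, RLE factors, no filter, 1 fit of all libraries, a covariate for the level of Y-linked genes and each library left out. The members, lists and tests were chosen with earlier results of these data known. Named genes are all members, at most 4 further genes of each pathway list and at most 2 of each marker list with the smallest adjusted p under 0.05 in a comparison; exceptions are stated where they occur. Positions are from GENCODE on GRCm38, upstream sequences from RefSeq on GRCm38.p6. Promoter windows were not used here for members the table did not hold, and no protein sequence was used. Figures were drawn with matplotlib 3.10.9. A few genes of the lists are counted with them and are not reported singly here.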

Additional observations from a re-analysis of the deposited data

Results flagged for a closer look

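For 4 of the 20 sets of values tested, that is 10 members in 2 groups of 8 mice, a library stood apart from the rest of its group by Dixon's criterion, which chance alone meets in about 1 in 20. Gfra1 was at 85.3 CPM in old library d149027, below all other old and all young libraries. Ret was at 123 CPM in young library d159033. Cntf was at 2.50 CPM in young library d149011 and at 4.78 CPM in old library d149034.

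The response in ALS differed from that in aging for 2 members by the interaction test, with a difference in log2 fold change of -0.44 for Ret and 1.28 for Cntf.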

How the results depend on the processing

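No paired analysis was possible because the columns of the tables carry library codes and not the replicate numbers of the labels. Of the counts of calls, most kept within 1.5 times their value under the alternatives. In aging, the CNTF family ligands called higher were 3, and 5 with DESeq2 and 5 with no filter on low counts, which admit Lif and Osm. With a log2 fold change beyond 1 required as well, 0 members and 0 of these ligands were called in aging and 1 member in ALS. With 1 library left out at a time, members called numbered 2 to 4 in aging, 2 to 4 in ALS and 2 to 4 in the interaction, where the 4 came without SOD1-G93A library d4437, and CNTF family ligands called higher numbered 2 to 3 in aging and 5 to 6 in ALS. Bdnf in aging also lost its call with limma on log2(FPKM + 1), at an adjusted p of 0.0512. Directions turned only for members not called. Gfra2 in ALS ran from -0.21 to 0.00945 with 1 library left out, the highest without SOD1-G93A library d4435. The interaction of Gfra2 ran from -0.0637 to 0.16 and was -0.00833 without control library d4444, -0.0170 without SOD1-G93A library d4437 and -0.0637 without SOD1-G93A library d4443, and that of Ngfr ran from -0.59 to 0.0102, the highest without d4437. With the Y-linked level as a covariate, 3 members and 6 ligands were called in ALS. The causes were not tested. Depth limits Gdnf, which had at most 10 counts in any library, and 3 mice a group limit the ALS comparison, in which a permutation test of a single value cannot pass 0.05.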
